A study of Sus scrofa with 4 samples.

Results

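In cultured cells from pig testis, 43 collagen genes were followed with and without knockdown of ZBTB16, also called PLZF. It is a repressor of transcription that spermatogonial stem cells of mice need to renew themselves. The collagen genes are all those whose symbol has the form COL, a type number, A and a chain number. They were chosen by name and not by their values from 26921 genes and loci, so a collagen locus without such a symbol is left out. Grouped by the kind of assembly they build, 11 are fibrillar, 6 belong to the basement membrane type IV, 4 to the beaded type VI and 22 to other types. RNA was sequenced from 2 libraries of cells labelled ZBTB16 knockdown and 2 libraries labelled WT, called control here. All 4 carry the label of immature spermatogonia from porcine testis, with no age or strain given. The series' design plans a lentivirus that carries a short hairpin RNA against ZBTB16, and the labels do not say whether the control cells received a vector, so an effect of the virus and one of the knockdown cannot be told apart. The labels speak of 2 independent experiments, and the p-values rest on the spread between these libraries alone, which may be technical.

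Collagens are secreted proteins whose alpha chains wind around each other in a helix, with glycine at regular places along a short repeat. In the testis, type IV collagen lies in the basement membrane under the seminiferous epithelium, and fibrillar collagens lie in the peritubular wall and the interstitium, where they are made mostly by fibroblasts and peritubular myoid cells. Newly made chains are hydroxylated and folded in the endoplasmic reticulum, exported in large carriers, trimmed outside the cell and cross-linked by lysyl oxidases.

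Some regions upstream of annotated transcript starts are shown because the results turn on their genes. COL4A1 and COL4A2 lie head to head and are known to share a short promoter region. One annotated COL4A2 transcript starts beyond the stretch printed here, and the other starts inside COL4A1. COL1A2 is among the most abundant members, COL7A1 had the largest fall and COL8A1 the largest rise among the members that passed the test. The sequences are from the Sscrofa 11.1 genome, 133 bases between the start of COL4A1 and the start of the COL4A2 transcript that lies outside COL4A1, and 250 bases before the other starts, read in the direction of the gene. Capitals mark matches to short motifs that were searched on both strands. The first is CCAAT, the sequence bound by the factor NF-Y. Another is GGGCGG, found at the core of many binding sites for the factor SP1. The last is TATAAA, the usual form of the TATA box.
COL4A1-COL4A2 (chr11:76997410-76997542, plus strand): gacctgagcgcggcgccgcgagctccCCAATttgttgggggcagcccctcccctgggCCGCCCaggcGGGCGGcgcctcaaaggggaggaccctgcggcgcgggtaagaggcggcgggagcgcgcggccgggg
COL1A2 (chr9:74174234-74174483, plus strand): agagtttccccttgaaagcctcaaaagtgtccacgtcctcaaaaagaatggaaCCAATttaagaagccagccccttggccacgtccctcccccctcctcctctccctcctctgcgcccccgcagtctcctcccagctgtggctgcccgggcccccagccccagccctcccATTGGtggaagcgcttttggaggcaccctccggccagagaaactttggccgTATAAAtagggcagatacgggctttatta
COL7A1 (chr13:31295113-31295362, minus strand): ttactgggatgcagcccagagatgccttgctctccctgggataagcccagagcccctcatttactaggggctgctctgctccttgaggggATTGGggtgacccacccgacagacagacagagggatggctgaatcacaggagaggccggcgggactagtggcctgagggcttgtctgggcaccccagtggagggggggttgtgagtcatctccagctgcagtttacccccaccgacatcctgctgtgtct
COL8A1 (chr13:159374719-159374968, minus strand): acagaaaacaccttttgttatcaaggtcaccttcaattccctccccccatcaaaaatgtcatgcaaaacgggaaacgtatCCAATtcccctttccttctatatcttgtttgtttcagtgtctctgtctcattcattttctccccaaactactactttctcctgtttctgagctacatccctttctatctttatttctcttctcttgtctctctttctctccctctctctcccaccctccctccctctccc
The stretch between COL4A1 and that COL4A2 transcript held CCAAT once and GGGCGG at 2 places, and 78.9% of its bases were G or C. Among 20665 windows of the same length before protein-coding genes, 21.4% held CCAAT and 37.8% held GGGCGG. The COL1A2 window held CCAAT at 2 places and TATAAA at 1. Among 20660 windows of 250 bases, 32% held CCAAT, 44.4% GGGCGG and 10.4% TATAAA. The COL7A1 and COL8A1 windows held CCAAT once each. A match is a description of the letters and not of a bound site.

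Levels are given as FPKM, a count scaled to transcript length and to library size, which allows comparison between genes. Collagens made up 1.74% and 1.73% of the counts in the knockdown libraries (95% Wilson intervals 1.73% to 1.75% and 1.72% to 1.73%) and 1.84% of the counts in each control library (1.84% to 1.85% and 1.83% to 1.84%). These intervals cover counting error only. Counts in all were 18500447 and 16548342 in the knockdown and 17283536 and 15983390 in the control. The levels of the members ranged over several orders of magnitude. The 5 highest members of each library held 74.7% and 74.9% of the summed collagen FPKM in the knockdown and 74.9% in both controls. In the knockdown libraries 22 members reached 1 FPKM, and in the control libraries 24.

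**Figure D1:**
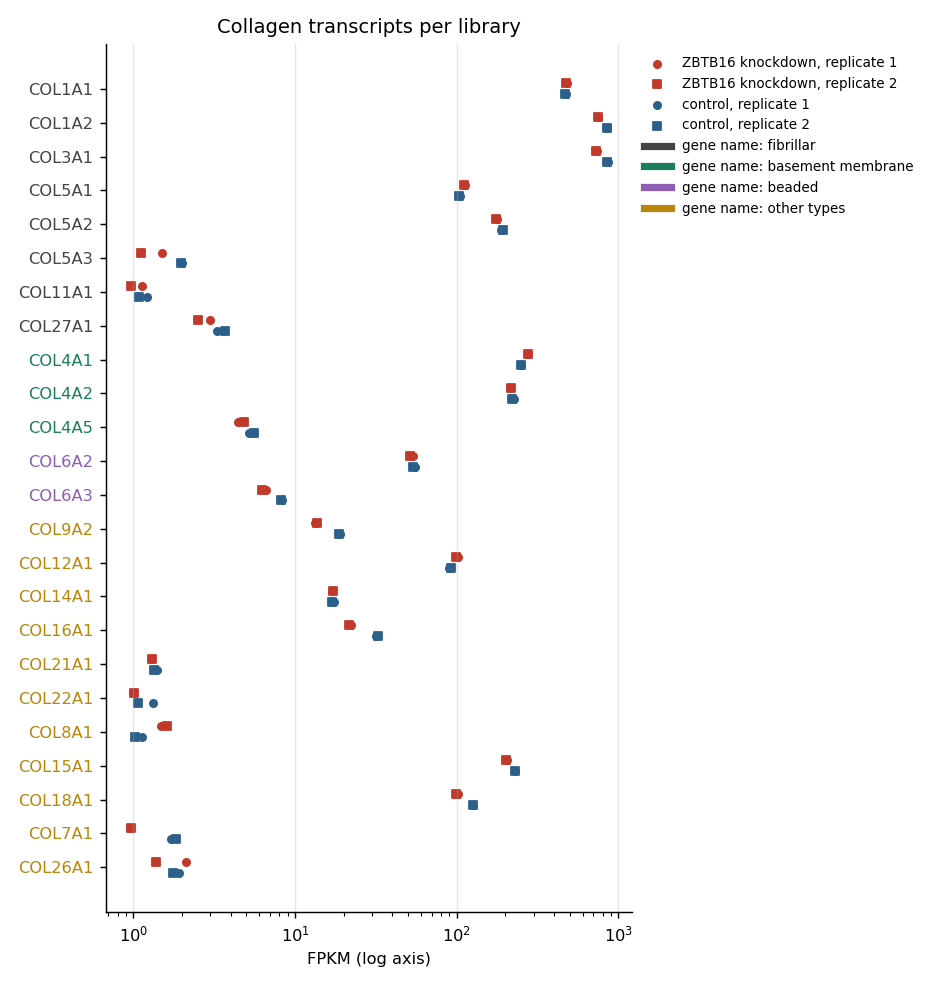
FPKM of the 24 collagen genes with a mean of at least 1 FPKM in either group, on a log axis, one row per gene with the 2 knockdown libraries above the 2 control libraries. COL1A2 and COL3A1 lie farthest to the right, COL1A2 at 748 and 750.1 FPKM in the knockdown and 853 and 849 FPKM in the control. Replicates lie farthest apart in genes of a few FPKM, such as COL5A3 and COL26A1.

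ZBTB16 itself was at 1.37 and 1.34 FPKM in the knockdown libraries and 1.77 and 1.76 FPKM in the controls. Its fitted counts were 0.779 times control (log2 fold change -0.36, SE 0.109, edgeR adjusted p = 0.00338), while DESeq2 gave an adjusted p of 0.113 and limma on log2(TPM + 1) 0.332. The dish also held many RNAs of somatic cells. DDX4, a helicase that defines germ cells, was at 2.01 and 1.86 FPKM in the knockdown and 2.3 and 1.96 FPKM in the control. The smooth muscle actin ACTA2 of peritubular cells was at 3508 and 3440 FPKM in the knockdown and 3209 and 3198 FPKM in the control. The Sertoli cell protein CLU was at 1936 and 1882 against 1943 and 1926 FPKM. VIM, from the list of fibroblast and stromal markers but not limited to fibroblasts, was at 812 and 791 against 822 and 822 FPKM. The highest germ cell marker of the list, the ubiquitin hydrolase UCHL1, was at 89.1 and 85.3 FPKM in the knockdown and 122 and 120.4 FPKM in the control, ID4 at 26.9 and 29.9 against 24.5 and 24.6 FPKM, and the receptor KIT at 7.69 and 7.78 against 6.75 and 7.18 FPKM. The label of immature spermatogonia therefore stands beside RNA in which ACTA2, CLU and VIM were above all these germ cell markers. The highest endothelial and macrophage markers of the lists, PECAM1 and CD14, were below UCHL1 and ID4. In such a mixture fewer cells of a type and less RNA per cell cannot be told apart.

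Of the 43 members, 39 had enough counts to be tested, and COL8A2, COL10A1, COL11A2 and COL20A1, with 0 to 9 counts per library, did not. The test compared counts with edgeR's quasi-likelihood method over all 15763 tested genes, and counted as called those whose p, adjusted by Benjamini and Hochberg, was under 0.05. Among the 39, 4 rose, 12 fell and 23 did not pass. Over all tested genes 46.4% were called, 22.7% higher and 23.8% lower, so the share of collagens called (41%) was near that of all genes, with 10.3% of members higher and 30.8% lower. The median log2 change was -0.10 for the tested members and -0.00 for all tested genes. Without control replicate 1 the median of the members was -0.02, with 4 rises and 12 falls as before, where 37.4% of all genes were called, 17.8% higher and 19.6% lower. Most changes were small. Only COL5A3, COL7A1 and COL24A1 were called and changed at least 1.5-fold, all 3 downward, against 3.34% of all tested genes higher and 5.28% lower by that rule.

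The direction of small changes depended on the unit. TPM, which scales transcripts to a fixed total, put the median of all genes at a log2 change of 0.14 and that of 26 members at 0.05. The members thus lay 0.09 below the median gene by TPM and 0.10 below it by counts. The 2 gaps rest on unlike sets, 26 members of 13796 genes by TPM and 39 members of 15763 genes by counts. With limma on log2(TPM + 1), 9 members were called higher and 4 lower, where 53.2% of all genes were called, 39.5% higher and 13.7% lower. Summed FPKM of all tested genes was 0.855 times control, a scale on which the collagens together were at 0.922 times. Summed TPM of the fibrillar, beaded and other types was 1.06, 1.10 and 1.04 times control, on the other side of 1 from their summed FPKM. In the following, rose and fell are relative to the library scaling of edgeR (TMM).

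**Figure D2:**
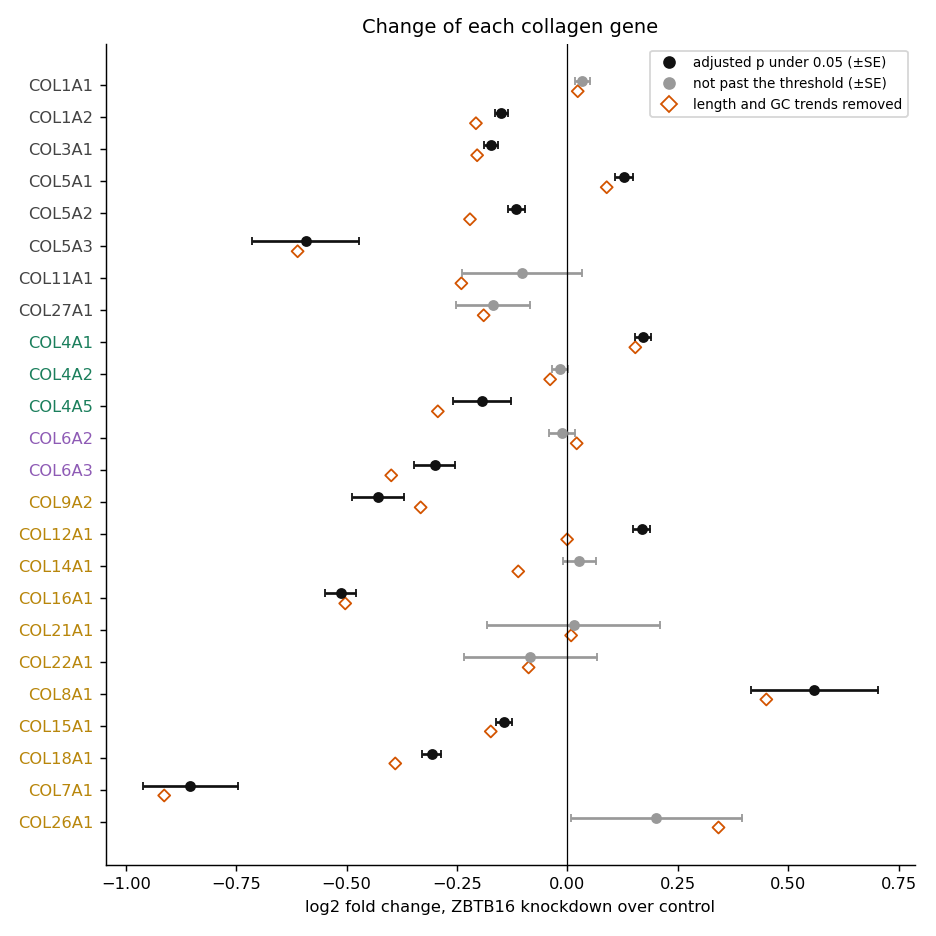
Log2 fold change of knockdown over control for the 24 collagen genes of at least 1 FPKM, with the standard error of the fit (filled points, black where the adjusted p was under 0.05) and the change after adjustment for transcript length and GC content (open diamonds). Gene names are coloured by group. COL7A1 and COL5A3 lie farthest to the left at -0.85 and -0.59, COL8A1 farthest to the right at 0.56, and COL12A1 moves to -0.00 with that adjustment.

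Fibrillar collagens form the banded fibrils of connective tissue, and their chains differed in direction. Of 10 tested, COL5A1 rose, COL1A2, COL3A1, COL5A2, COL5A3 and COL24A1 fell, and 4 did not pass. Their summed FPKM was 2259 and 2239 in the knockdown and 2481 and 2472 in the control. That is 0.908 times control, above the 0.855 times of all tested genes, and the summed TPM was 1.06 times control. COL1A1 (chromosome 12, 26379087 to 26397180), the main chain of type I collagen, had 482 and 471 FPKM in the knockdown and 471 and 465 FPKM in the control. The groups met at 471 FPKM, and its log2 change of 0.03 (SE 0.0161) had an adjusted p of 0.073. It was called higher without knockdown replicate 2 (0.05, adjusted p = 0.0289) and with an offset for effective length (0.08, adjusted p = 9.65e-05), and lower with the length trend removed (-0.09, adjusted p = 3.16e-07), so its sign depended on the scaling. It was also called higher with RLE scaling (0.04, adjusted p = 0.0481), by TPM (0.25, adjusted p = 0.00127) and adjusted for length and GC content (0.02, adjusted p = 2.61e-07). In that last fit its standard error of 0.00373 was below the 0.00668 of counting alone.

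COL1A2 (chromosome 9, 74174484 to 74210407), the partner chain of COL1A1 in type I collagen, had 748 and 750.1 FPKM in the knockdown libraries and 853 and 849 FPKM in the controls. Both knockdown libraries were below both controls. By counts it fell to 0.902 times control (log2 -0.15, SE 0.0154, adjusted p = 1.48e-16). By TPM its log2 change was 0.04 (adjusted p = 0.135).

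COL3A1 (chromosome 15, 93556914 to 93595678), the chain of type III collagen in soft tissue, had 734 and 727 FPKM in the knockdown against 857 and 855 FPKM in the control. It fell to 0.887 times control (log2 -0.17, SE 0.0155, adjusted p = 1.75e-20), and the groups were apart. Its neighbour COL5A2 lies 16177 bases away with no annotated coding gene between them. By TPM the change of COL3A1 was -0.00 (adjusted p = 0.883).

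Type V collagen sits inside type I fibrils and limits their width, and its chains moved apart. COL5A1 (chromosome 1, 273934219 to 274083264) had 112 and 110.4 FPKM in the knockdown and 105 and 104 FPKM in the control, with every knockdown value above every control value. It rose 1.09-fold (log2 0.13, SE 0.0207, adjusted p = 3.3e-08), but with the length trend removed the change was 0.01 (adjusted p = 0.698). Adjusted for length and GC content together it was 0.09 (adjusted p = 0.000113). COL5A2 (chromosome 15, 93611856 to 93981131) had 177 and 175 FPKM in the knockdown and 188 and 192 FPKM in the control and fell to 0.923 times control (adjusted p = 2.64e-08). By TPM it was called higher, with a log2 change of 0.12 (limma adjusted p = 0.014), still below the median of 0.144 of all genes on that scale. COL5A3, the less common chain of type V, was at 1.51 and 1.11 FPKM in the knockdown and 2.0 and 1.98 FPKM in the control. It fell to 0.663 times control (log2 -0.59, SE 0.122, adjusted p = 1.31e-05), with both knockdown libraries below the controls but apart from each other. With limma on log2(FPKM + 0.1) its adjusted p was 0.0513, on log2(FPKM + 1) without a filter 0.114 and on log2(TPM + 1) 0.134.

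The remaining fibrillar genes were near or below a few FPKM. COL24A1, a fibrillar chain known from developing bone, had 0.35 and 0.40 FPKM in the knockdown and 0.57 and 0.64 FPKM in the control, from 51 and 52 against 77 and 80 counts. It fell to 0.631 times control (adjusted p = 0.00208), but DESeq2 gave 0.0909. COL27A1, a cartilage fibril chain, had 3.0 and 2.51 FPKM in the knockdown and 3.31 and 3.71 FPKM in the control, a difference that did not pass (log2 -0.17, adjusted p = 0.0937). Without knockdown replicate 1 the log2 change of COL27A1 was -0.33 (adjusted p = 0.0104), and with the length trend removed it was -0.30 (adjusted p = 0.00147). COL11A1 of type XI was at 1.13 and 0.97 FPKM in the knockdown and 1.22 and 1.09 FPKM in the control (adjusted p = 0.572), and COL2A1, the chain of cartilage type II collagen, stood at 0.39 and 0.31 against 0.44 and 0.51 FPKM (adjusted p = 0.226).

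Type IV chains form the network of basement membranes. Of 6 tested, COL4A1 rose, COL4A5 fell and 4 did not pass, and their summed FPKM was 496 and 497 in the knockdown and 485 and 476 in the control. COL4A1 (chromosome 11, 76858332 to 76997409) had 277 and 275 FPKM in the knockdown libraries and 251 FPKM in each control. It rose 1.13-fold (log2 0.17, SE 0.0171, adjusted p = 2.19e-17). With the length trend removed the change was 0.05 (adjusted p = 0.0194), and it was 0.15 once GC content was modelled beside length.

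COL4A2 (chromosome 11, 76996885 to 77161617), its neighbour in head-to-head orientation, did not pass the test. It had 213 and 215 FPKM in the knockdown and 227 and 219 FPKM in the control. The 2 groups were apart by FPKM, but by counts the log2 change was -0.02 (SE 0.0182, adjusted p = 0.502). It was called lower with the length trend removed (-0.13, adjusted p = 1.31e-11) and higher by TPM (0.17, adjusted p = 0.00799). The annotated genes overlap by 525 bases, and no source used here says if reads were counted by strand, so those in the overlap cannot be told apart.

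COL4A5, a chain of specialised basement membranes, had 4.46 and 4.83 FPKM in the knockdown and 5.22 and 5.56 FPKM in the control and fell (log2 -0.19, SE 0.0667, adjusted p = 0.0112). The call was lost without control replicate 2 (adjusted p = 0.141), without knockdown replicate 1 (0.189), with DESeq2 (0.196) and with an offset for effective length (0.0593). COL4A3, COL4A4 and COL4A6, the other chains of such membranes, were between 0.15 and 0.80 FPKM in the knockdown and between 0.18 and 0.78 FPKM in the control, and none passed.

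**Figure D3:**
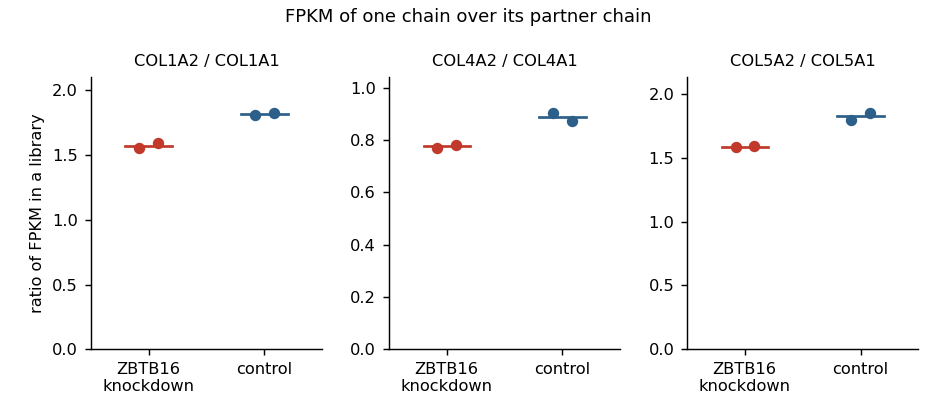
FPKM of one chain divided by that of its partner in the same library, for COL1A2 over COL1A1, COL4A2 over COL4A1 and COL5A2 over COL5A1. Points are libraries and lines are group means. In each panel both knockdown libraries lie below both controls, for example at 0.770 and 0.781 against 0.904 and 0.872 for COL4A2 over COL4A1.

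In types I, IV and V the second chain was lower relative to the first in the knockdown. Such a ratio within a library does not depend on library scaling, but it shows unequal change only. COL1A2 stood at 1.55 and 1.59 times COL1A1 in the knockdown and at 1.81 and 1.83 times in the control. COL4A2 was 0.770 and 0.781 times COL4A1 in the knockdown, against 0.904 and 0.872 times in the control. For COL5A2 over COL5A1 the ratios were 1.58 and 1.59 in the knockdown and 1.80 and 1.85 in the control. The groups were apart in these 3 pairs, and the difference of the fitted log2 changes was -0.18, -0.19 and -0.24. How often the ratios of other gene pairs are apart was not tested. By FPKM 70.4% of all tested genes were apart when taken singly, a share that cannot be carried over to ratios within a library. Whether the separation of these pairs is particular to collagens was not tested. Adjusted for length and GC content these differences were -0.23, -0.19 and -0.31. In type VI the ratio went the other way, with COL6A2 at 0.503 and 0.496 times LOC100623720, the locus matched to COL6A1, in the knockdown and at 0.448 and 0.459 times in the control, a difference of 0.08 on the log2 scale. With 2 libraries per group the smallest two-sided p of an exact permutation test is 0.333, and the ratios are given without one.

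Type VI collagen forms beaded filaments near cells. Of 4 tested members COL6A3 fell and 3 did not pass. The counts and sums of this group leave out LOC100623720, the locus matched to COL6A1. COL6A2, whose gene lies on a scaffold with no chromosome, had 53.6 and 51.5 FPKM in the knockdown and 55.4 and 53.6 FPKM in the control (log2 -0.01, adjusted p = 0.769). By TPM it was called higher (0.17, adjusted p = 0.0153). COL6A3 (chromosome 15, 137011549 to 137103687), the long chain of the filament, had 6.61 and 6.29 FPKM in the knockdown and 8.37 and 8.23 FPKM in the control and fell to 0.812 times control (log2 -0.30, SE 0.0468, adjusted p = 1.02e-08). By TPM its change was -0.13 (adjusted p = 0.108). Relative to COL6A2 it stood at 0.123 and 0.122 in the knockdown and 0.151 and 0.153 in the control. COL6A5 and COL6A6 were at 0.11 to 0.18 FPKM in the knockdown and 0.06 to 0.18 FPKM in the control. LOC100623720, which is no member by name, is paired with human COL6A1 by a Swiss-Prot match in the authors' deposited tables and had 107 and 104 FPKM in the knockdown and 124 and 117 FPKM in the control (log2 -0.09, adjusted p = 0.000512). Without control replicate 1 its adjusted p was 0.166.

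Among the other types, FACIT collagens decorate the surface of fibrils. Of 9 tested, COL12A1 rose, COL9A2 and COL16A1 fell and 6 did not pass. COL16A1 (chromosome 6, 88177798 to 88243718) had 22.2 and 21.7 FPKM in the knockdown and 31.9 and 32.4 FPKM in the control. It fell to 0.701 times control (log2 -0.51, SE 0.035, adjusted p = 7.18e-30), and its change was -0.61 with the length trend removed and -0.32 by TPM. COL9A2 (chromosome 6, 96065282 to 96081547), a chain of cartilage type IX, had 13.3 and 13.7 FPKM in the knockdown and 18.9 and 18.8 FPKM in the control and fell to 0.743 times control (adjusted p = 7.68e-11). COL9A1 and COL9A3, its partners in type IX, stayed below 1 FPKM in all libraries and did not pass.

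COL12A1 (chromosome 1, 90744409 to 90875127), a long collagen of tendon and fascia, had 101 and 99.7 FPKM in the knockdown and 90.0 and 92.2 FPKM in the control. It rose 1.12-fold (log2 0.17, SE 0.0192, adjusted p = 3.64e-14), but with the length trend removed its change was -0.01 (adjusted p = 0.764), and adjusted for length and GC content it was -0.00. COL14A1, a FACIT of skin and tendon, was at 16.8 and 17.2 FPKM in the knockdown and 17.5 and 16.8 FPKM in the control, and the groups overlapped (adjusted p = 0.591). With the length trend removed COL14A1 was called lower (-0.11, adjusted p = 0.00909), and by TPM higher (0.20, adjusted p = 0.0155). COL21A1 and COL22A1 were at 0.99 to 1.3 FPKM in the knockdown and 1.07 to 1.41 FPKM in the control and did not pass.

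The multiplexins COL15A1 and COL18A1 lie in basement membrane zones, and the end of COL18A1 gives the fragment endostatin. COL18A1 (chromosome 13, 207907835 to 207984082) had 101 and 99.2 FPKM in the knockdown and 127 and 126 FPKM in the control, with the groups apart. It fell to 0.808 times control (log2 -0.31, SE 0.0211, adjusted p = 1.31e-29). COL15A1 (chromosome 1, 240718128 to 240829188) had 204 and 202 FPKM in the knockdown and 229 FPKM in each control and fell to 0.905 times control (adjusted p = 6.58e-12). By TPM its change was 0.05 (adjusted p = 0.121).

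COL7A1 (chromosome 13, 31262750 to 31295112), the anchoring fibril of epithelia, had the largest fall. It was at 0.95 and 0.97 FPKM in the knockdown and 1.70 and 1.85 FPKM in the control, from 157 and 144 against 260 and 263 counts. Both knockdown libraries were well below the controls, at 0.553 times by counts (log2 -0.85, SE 0.108, adjusted p = 4.27e-12). COL8A1 (chromosome 13, 159216138 to 159374718), a short-chain collagen of vessel walls, had 1.49 and 1.61 FPKM in the knockdown and 1.13 and 1.03 FPKM in the control and rose 1.47-fold (log2 0.56, SE 0.144, adjusted p = 0.000529). Its call was lost with limma on log2(FPKM + 0.1) (adjusted p = 0.0514) and on log2(FPKM + 1) without a filter (0.0762). The adjusted p was 0.0483 with limma on log2(FPKM + 1) with the filter and 0.0486 with DESeq2. The transmembrane members COL13A1, COL17A1, COL23A1 and COL25A1 were at 0.10 to 0.36 FPKM in the knockdown and 0.07 to 0.40 FPKM in the control, and none passed. COL26A1, at 2.13 and 1.38 FPKM in the knockdown and 1.92 and 1.76 FPKM in the control, overlapped between groups (adjusted p = 0.42), as did COL28A1 below 1 FPKM.

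Transcript length moved with these changes. The mean fragment was 266 and 267 bases in the knockdown and 326 and 327 bases in the control, and above 500 bases the log2 changes of all genes were higher the longer the transcripts, with a median of -0.42 at 500 to 1000 bases, -0.19 at 1000 to 2000, -0.01 at 2000 to 4000, 0.08 at 4000 to 6000 bases, 0.14 at 6000 to 8000 and 0.19 at 8000 or more. The shortest 235 genes, under 500 bases, were at 0.70. The 7, 13, 9 and 10 tested collagens in the ranges from 2000 bases had medians of -0.20, -0.14, -0.10 and 0.09. The median length was 5931 bases for the tested collagens and 3077 bases for all tested genes, and the median GC content 57.8% and 51%. With the length trend removed 2 members were higher and 17 lower, where 41.1% of all genes were called, 19.5% higher and 21.6% lower. Adjusted for length and GC content together, 4 members were higher and 14 lower, where 39% of all genes were called, 19.1% higher and 19.9% lower. Fragment length splits the libraries along the groups, so its part in the collagen results and that of the knockdown cannot be told apart.

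**Figure D4:**
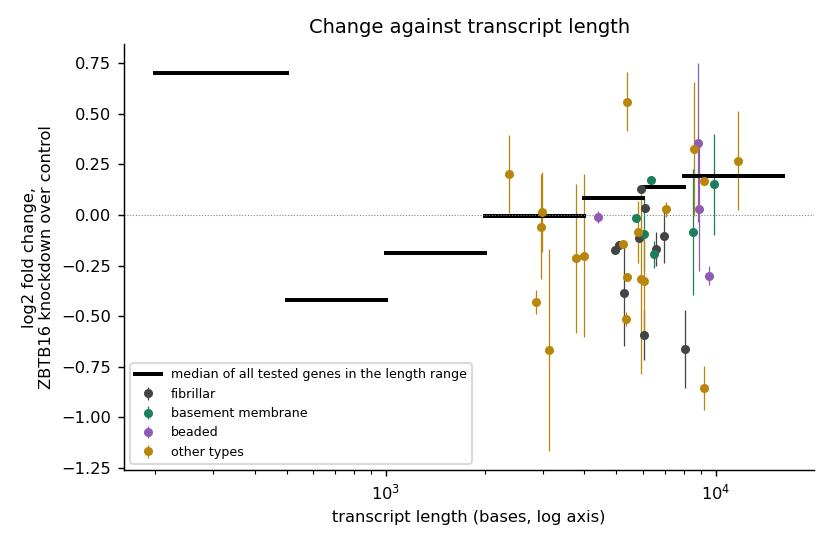
Log2 fold change of the 39 tested collagen genes against transcript length on a log axis, with standard errors, and the median change of all tested genes in each length range (black bars). Between 4000 and 8000 bases most collagens lie below the bars, which stand at 0.08 and 0.14.

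By FPKM both knockdown libraries lay outside both controls for 6 tested members upward and 20 downward. Over all tested genes 70.4% were apart by that measure, 29% upward and 41.4% downward.

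Genes that make, export and bind collagen went in both directions. They were taken from lists of known roles, and among 55 with enough counts 16 rose, 21 fell and 18 stayed uncalled, where 46.4% of all tested genes were called, 22.7% higher and 23.8% lower. In modification and folding 4 of 21 rose, 11 fell and 6 did not pass. PPIB, a prolyl isomerase that helps collagen fold, was at 482 and 471 FPKM in the knockdown and 893 and 887 FPKM in the control. By counts PPIB fell to 0.589 times control (log2 -0.76, SE 0.0223, adjusted p = 1.07e-73), and the change was -0.43 with the length trend removed. P4HB, a subunit of prolyl hydroxylase, had 413 and 410.0 FPKM in the knockdown and 478 and 499 FPKM in the control and fell to 0.872 times control (adjusted p = 3e-18). SERPINH1, the collagen chaperone HSP47, had 408 and 392.5 FPKM in the knockdown and 472 and 467 FPKM in the control and fell to 0.879 times control (adjusted p = 5.35e-16). Adjusted for length and GC content, SERPINH1 changed by -0.02 (adjusted p = 0.474) and P4HB by -0.05 (adjusted p = 0.00482). By TPM neither was called, at -0.01 (adjusted p = 0.871) for SERPINH1 and -0.02 (adjusted p = 0.543) for P4HB. PLOD2, the lysyl hydroxylase of the telopeptides, went the other way, at 105 and 104 FPKM in the knockdown and 84.7 and 85.4 FPKM in the control, and rose 1.26-fold (adjusted p = 7.23e-28).

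Of 9 export genes 5 rose, 2 fell and 2 stayed uncalled. SEC24D, a coat subunit needed for large cargo, had 68.4 and 68.0 FPKM in the knockdown and 56.0 and 56.7 FPKM in the control and rose 1.24-fold (adjusted p = 2.03e-20), and SEC31A, an outer coat subunit, rose 1.16-fold. SEC13, its partner, fell to 0.876 times control, and KLHL12, which helps enlarge the coat, to 0.833 times. With the length trend removed SEC13 was at 0.01 (adjusted p = 0.845). By TPM SEC13 was at -0.06 (adjusted p = 0.176) and KLHL12 at -0.09 (adjusted p = 0.164). Of 9 genes of propeptide processing 1 rose and 3 fell. PCOLCE2, an enhancer of the C-proteinase, had 29.1 and 27.6 FPKM in the knockdown and 39.5 and 39.9 FPKM in the control and fell to 0.747 times control (adjusted p = 6.08e-14). BMP1, the C-proteinase itself, and ADAMTS3, an N-proteinase, fell to 0.915 and 0.870 times control, calls lost by TPM (0.05, adjusted p = 0.281, and -0.01, adjusted p = 0.878). FURIN rose 1.07-fold, a call lost with DESeq2 (adjusted p = 0.195), without control replicate 1 (0.223) or 2 (0.0534) and without knockdown replicate 2 (0.15).

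Cross-linking was led by LOX, the lysyl oxidase that joins collagen chains. LOX had 252 and 258 FPKM in the knockdown and 168 and 172 FPKM in the control. The groups were far apart, with a 1.47-fold rise (log2 0.55, SE 0.0203, adjusted p = 4.35e-60), 0.50 with the length trend removed and 0.51 adjusted for GC content as well. TGM2, a transglutaminase, rose 1.07-fold, and LOXL2 and LOXL3, relatives of LOX, fell to 0.931 and 0.841 times control. With DESeq2 the adjusted p was 0.0538 for TGM2, 0.0716 for LOXL2 and 0.282 for LOXL3. TGM2 also lost its call without control replicate 1 (0.0949) or knockdown replicate 1 (0.0975), LOXL2 without control replicate 1 (0.057) or knockdown replicate 1 (0.0533) and LOXL3 without control replicate 1 (0.296) or knockdown replicate 2 (0.425). By TPM LOXL2 was at 0.08 (adjusted p = 0.108) and LOXL3 at -0.12 (adjusted p = 0.413).

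Among 9 receptors and uptake genes with enough counts 4 rose, 3 fell and 2 stayed uncalled. ITGA1, the integrin subunit that prefers type IV collagen, had 8.56 and 8.55 FPKM in the knockdown and 6.46 and 6.22 FPKM in the control. It rose 1.36-fold (log2 0.45, SE 0.0444, adjusted p = 1.54e-17), and the change was 0.25 with the length trend removed and 0.20 adjusted for GC content as well. ITGA11, an integrin subunit for fibrillar collagen, rose 1.24-fold (adjusted p = 1.5e-07), and ADGRG1, a receptor for type III collagen, 1.13-fold. MRC2, which takes up collagen for breakdown, fell to 0.873 times control (adjusted p = 3.26e-07), a call lost by TPM (0.01, adjusted p = 0.906).

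**Figure D5:**
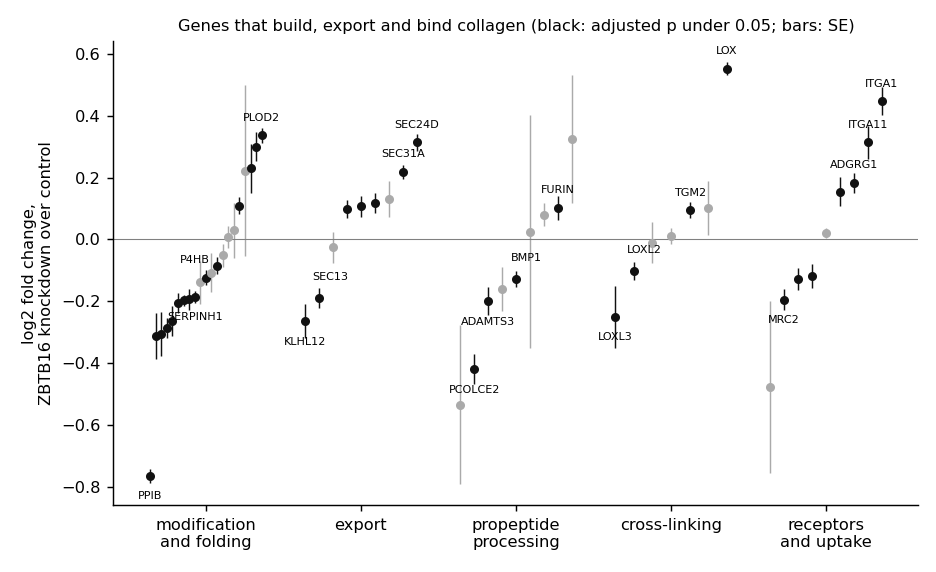
Log2 fold change of knockdown over control for the tested genes of 5 lists of collagen biology, with standard errors, black where the adjusted p was under 0.05. LOX stands at 0.55 at the top and PPIB at -0.76 at the bottom, and each list holds changes in both directions.

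Markers of germ and somatic cells were also among the called genes, where 46.4% of all tested genes were called. Of 10 tested fibroblast and stromal markers 1 rose and 4 fell, with a summed FPKM of 1558 and 1533 in the knockdown and 1558 and 1562 in the control. DCN was at 332 and 337 FPKM in the knockdown and 357 and 359 FPKM in the control, and LUM at 183 and 182 against 134 and 136 FPKM. All 8 peritubular and smooth muscle markers were called, 6 higher and 2 lower, and their sums were 5809 and 5708 in the knockdown and 5858 and 5772 in the control. Their 2 highest genes moved in opposite directions. ACTA2 was at 3508 and 3440 FPKM in the knockdown against 3209 and 3198 FPKM in the control, and TAGLN at 1441.7 and 1418.1 against 1918.5 and 1846.4 FPKM. Among 10 Sertoli cell markers 7 rose and 2 fell, with sums of 2882 and 2854 in the knockdown and 2726 and 2697 in the control. Of 7 tested macrophage markers 1 rose and 3 fell (24.5 and 27.0 against 35.1 and 39.0 FPKM), of 6 of Leydig cells 2 fell and none rose (181 and 192 against 222 and 220.2 FPKM), of 7 of endothelial cells 1 fell and none rose (14.5 and 13.6 against 15.6 and 14.2 FPKM), and of 13 of germ cells 4 rose and 3 fell (145 and 143 against 178 and 177 FPKM). UCHL1 held most of the germ cell sum, at 89.1 and 85.3 FPKM in the knockdown against 122 and 120.4 FPKM in the control. In the macrophage list CD14 was at 13.6 and 12.7 against 17.4 and 18.1 FPKM, and AIF1 at 2.48 and 3.28 against 7.59 and 10.1 FPKM. A lower sum can thus follow a few genes while others of its list rose, and it does not measure the number of cells. No listed marker that the files hold was at 0 in all libraries. Summed FPKM of all tested genes was 0.855 times control. On that scale the Sertoli sum was at 1.06, the fibroblast and peritubular sums at 0.991 and 0.990, the endothelial at 0.945, the Leydig at 0.844, the germ cell at 0.809 and the macrophage at 0.695 times control. By TPM the Sertoli sum was 1.24, the fibroblast and peritubular sums 1.16, the endothelial 1.10, the Leydig 0.987, the germ cell 0.946 and the macrophage 0.812 times control. The part of cell type shares in the collagen results was not tested.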

How the data were processed

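RNA was sequenced in 4 libraries, 2 per group, grouped by their titles. Per the labels' protocols, the authors filtered reads with SOAPnuke 2.1.0, aligned them to Sscrofa 11.1 with HISAT2 2.2.1, mapped them to transcripts with bowtie2 2.3.5 and counted them with RSEM 1.3.3. The authors deposited RSEM's expected counts, not all of them whole numbers, with FPKM and TPM per gene, and per the file headers a transcript length and an effective length in bases, whose difference gave the mean fragment length. Coordinates came from RefSeq on the same build by transcript accession, for all 43 collagens.

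Expected counts were rounded and tested with edgeR 4.0.16 in R 4.3.3 (TMM, filterByExpr with minimum count 10 and minimum total 15, two-sided quasi-likelihood test, Benjamini-Hochberg adjustment over all tested genes). The standard error is the absolute log2 change divided by the square root of the F statistic. The code was checked on simulated counts. Alternatives were DESeq2 1.42.0, limma 3.58.1 on log2(FPKM + 1), log2(FPKM + 0.1) and log2(TPM + 1), other scalings and filters, offsets for effective length and for smooth trends of length and GC content (mgcv 1.9.3), the replicate number as a block and leaving out each library. The TPM alternative was chosen after seeing the data. Genes with no GC content were left out of that fit, and the limma fits, except one, kept genes of at least 1 in at least 2 libraries.

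Every collagen with a mean of at least 1 FPKM in either group was named, with COL24A1 and COL2A1 added for their values; in each list of collagen biology up to 4 tested genes with the smallest p and at least 1 FPKM were named, and in each marker list up to 3 of the highest, besides DDX4. The members and lists were chosen with earlier results of these data known.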

Additional observations from a re-analysis of the deposited data

How the results depend on the processing

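Over all genes 7319 were called, against 4441 with DESeq2, 4438 with limma on log2(FPKM + 1) without a filter and 1359 at a change of at least 1.5-fold. Of the collagens 4 were higher and 12 lower. At 1.5-fold these were 0 and 3, by limma on log2(TPM + 1) 9 and 4, and with the length trend removed 2 were higher. Without 1 library at a time 4 to 5 were higher and 11 to 12 lower. The members' median of -0.103 was -0.122 with limma on log2(FPKM + 1), -0.0568 in that fit without a filter and -0.151 on log2(FPKM + 0.1). With edgeR and no low-count filter it was -0.106. It was -0.0832 with the effective length as an offset, -0.24 with the length trend removed and -0.182 adjusted for length and GC content. By TPM it was 0.0519, and without 1 library it was between -0.135 and -0.0197.

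Of 397 alternative values of named or called collagens, 356 kept their call and direction or stayed uncalled. With the sign unchanged, 17 lost the call and 13 gained one. The other 11 reversed, that is, changed sign with a call in the main fit, the alternative or both. Only COL5A2 by TPM was called in both fits, in opposite directions. By TPM the median log2 change of all genes was 0.144. The log2 changes that reversed by TPM were 0.0413 for COL1A2, 0.116 for COL5A2, 0.168 for COL4A2, 0.0108 for COL4A5, 0.17 for COL6A2 and 0.0499 for COL15A1. Of these only COL4A2 and COL6A2 lay above that median. LOC100623720 was at 0.0324, BMP1 at 0.0492, LOXL2 at 0.0793 and MRC2 at 0.00661. Summed TPM over control was 1.06 for fibrillar, 1.1 for beaded and 1.04 for other types, against summed FPKM of 0.908, 0.94 and 0.886. With the length trend removed COL1A1 was at -0.0861, COL12A1 at -0.00848, COL14A1 at -0.112 and SEC13 at 0.00972. Adjusted for length and GC content, COL12A1 was at -0.000637, COL14A1 at -0.111 and SEC13 at 0.0119. The causes of these differences were not tested.

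With the replicate number as a block 7480 genes, 5 collagens higher and 12 lower were called, and COL1A1 gained a call at a log2 change of 0.03. Its standard error was 0.00419 there and 0.00373 after adjustment for length and GC content, below the 0.00668 of counting alone. In both fits the standard errors of COL1A2, COL3A1, COL4A1 and COL4A2 were also below those of counting alone. The p-values of these fits can thus be too small for such abundant genes. The deviations of same-numbered libraries had a correlation of 0.00036 over 15763 genes, so the numbers were not taken as pairs. Depth limits the 19 members under 1 FPKM, 15 of them tested.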
